A study of Mus musculus with 5 samples.

Results

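The genes described here encode the protein core of the spliceosome and the SR splicing factors. They were the rows of the deposited expression table whose symbols begin with Srsf, Sf3a, Sf3b, Snrp or Prpf followed by the member's number or letter, without Snrpn and without pseudogene symbols. There were 44 such genes among 32285 rows: 11 Srsf, 9 Sf3a and Sf3b, 11 Snrp and 13 Prpf genes. RNA-seq was done on mouse embryos at the 2-cell stage. Oocytes of superovulated females aged 6 to 9 weeks were incubated for 6 h with sperm of males aged 12 to 16 weeks, and zygotes showing both pronuclei were then kept in culture for 24 h. The 2 control libraries came from KSOM medium with DMSO, and the 3 exposed libraries from KSOM medium with 25 nM PNMC and the same volume of solvent. The labels do not spell out PNMC and name no mouse strain, and they do not say how many embryos a library held or whether libraries came from separate cultures. The p-values below therefore rest on a library-to-library spread that could be technical. Transcript levels were compared between exposed and control embryos.

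Introns are removed from pre-mRNA by the spliceosome, which is built anew on each intron from small nuclear ribonucleoproteins (snRNPs). U1 recognises the start of the intron and U2 the branch point. The joined U4, U6 and U5 particle then arrives and is rearranged into the catalytic centre. SR proteins, named for repeats of arginine and serine, bind exons and help U1 and U2 to settle on the right sites. The main wave of genome activation in the mouse falls at the 2-cell stage, when maternal RNA is still present, so the transcripts measured here can be maternal or embryonic and were not separated.

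The library values summed to between 446010 and 454548, and 17408 to 18595 genes were listed above 0 per library. The unit is a normalised signal that the sources used here do not define, and neither the read depth nor any scaling by transcript length is known. Levels of different genes are therefore given as deposited and not ranked as abundances. All 9 markers of the 2-cell programme that the table lists and all 10 oocyte markers reached a value of 1 in 2 or more libraries, and the 2-cell markers summed to 1121 to 1346 per library. Of the 11 cumulus cell markers, 3 reached that level, Amhr2, Cyp19a1 and Tnfaip6, and 5, among them Amh and Foxl2, were at 0 everywhere. The sums of the 11 markers were 28.3 and 28.6 for the controls against 21.1 to 33.0 for PNMC. Most of each sum was Amhr2, at 22.7 and 21.6 in the controls and at 18.2, 26.1 and 17.1 after PNMC. The sperm markers summed to 4.22 to 6.89, with Prm1, Tnp2 and Smcp at 0, and the oviduct markers to 0.891 to 1.90. Most of the sperm sum was Prm2, at 3.91 and 4.02 in the controls and at 5.19, 5.79 and 4.54 after PNMC. The blood list summed to 26.8 and 50.8 in the controls and to 13.6, 20.05 and 17.0 after PNMC, and the immunoglobulin gene Ighg2b had the largest value of the list in each library. Its part in the results below was not tested.

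No gene of the spliceosome core or SR family passed the test for a difference between PNMC and control embryos. Of the 44 genes, 42 reached a value of 1 in 2 or more libraries and entered the limma fit of 12734 genes, and 0 had an adjusted p under 0.05. The same held for all genes (percent called 0), and the lowest adjusted p among the splicing genes was 0.967. Before adjustment, 2 of them had a limma p under 0.05, Srsf5 and Sf3a3, both lower after PNMC, and 0 were higher. Over all genes tested the shares were 3.27% lower and 1.73% higher, 4.99% together. The 3 PNMC values lay entirely below both controls in 5 of the 42 genes (background 11.9%) and entirely above in 2 (background 7.97%). Those 7 genes are 16.7%, against 19.9% of all genes tested. With 1 library left out, so that fewer values have to separate, the count was 21 without control 1, 24 without control 2 and 13 without PNMC 2. These are 50%, 57.1% and 31% of the 42, where all genes tested gave 50.3%, 52.3% and 34.6%. Estimates were below 0 in 25 genes (background 56.9%) and above 0 in 17, and the median log2 change was -0.08 against -0.05 over all genes tested. All log2 changes here compare log2(value + 1), so those of genes with low values are understated. In libraries from an unstated number of 2-cell embryos, fewer cells and less RNA per cell cannot be told apart.

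A p above the threshold does not show that levels were equal, so the intervals are given. The 95% interval of the log2 change lay within 1 unit either way in 38 of the 42, or 90.5%, against 61.4% of all genes tested. The splicing genes also had higher values, with a median of 21.9 against 7.09. The 4 others were Srsf2, Srsf6, Sf3a3 and Prpf4b, all with intervals that reach beyond -1. The median SD within a group was 0.24 on the log2 scale, close to the 0.23 of the 5259 genes whose mean values lie between the 10th and 90th percentile of the splicing genes. In 26 of the 42 genes, or 61.9%, the difference between groups was smaller than the difference between the 2 controls, against 64.8% of all genes tested. Group means vary less than single libraries, so this count does not show that a difference was absent. By family it was 5 of 10 Srsf, 1 of 9 SF3, 10 of 11 Snrp and 10 of 12 Prpf genes.

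**Figure D1:**
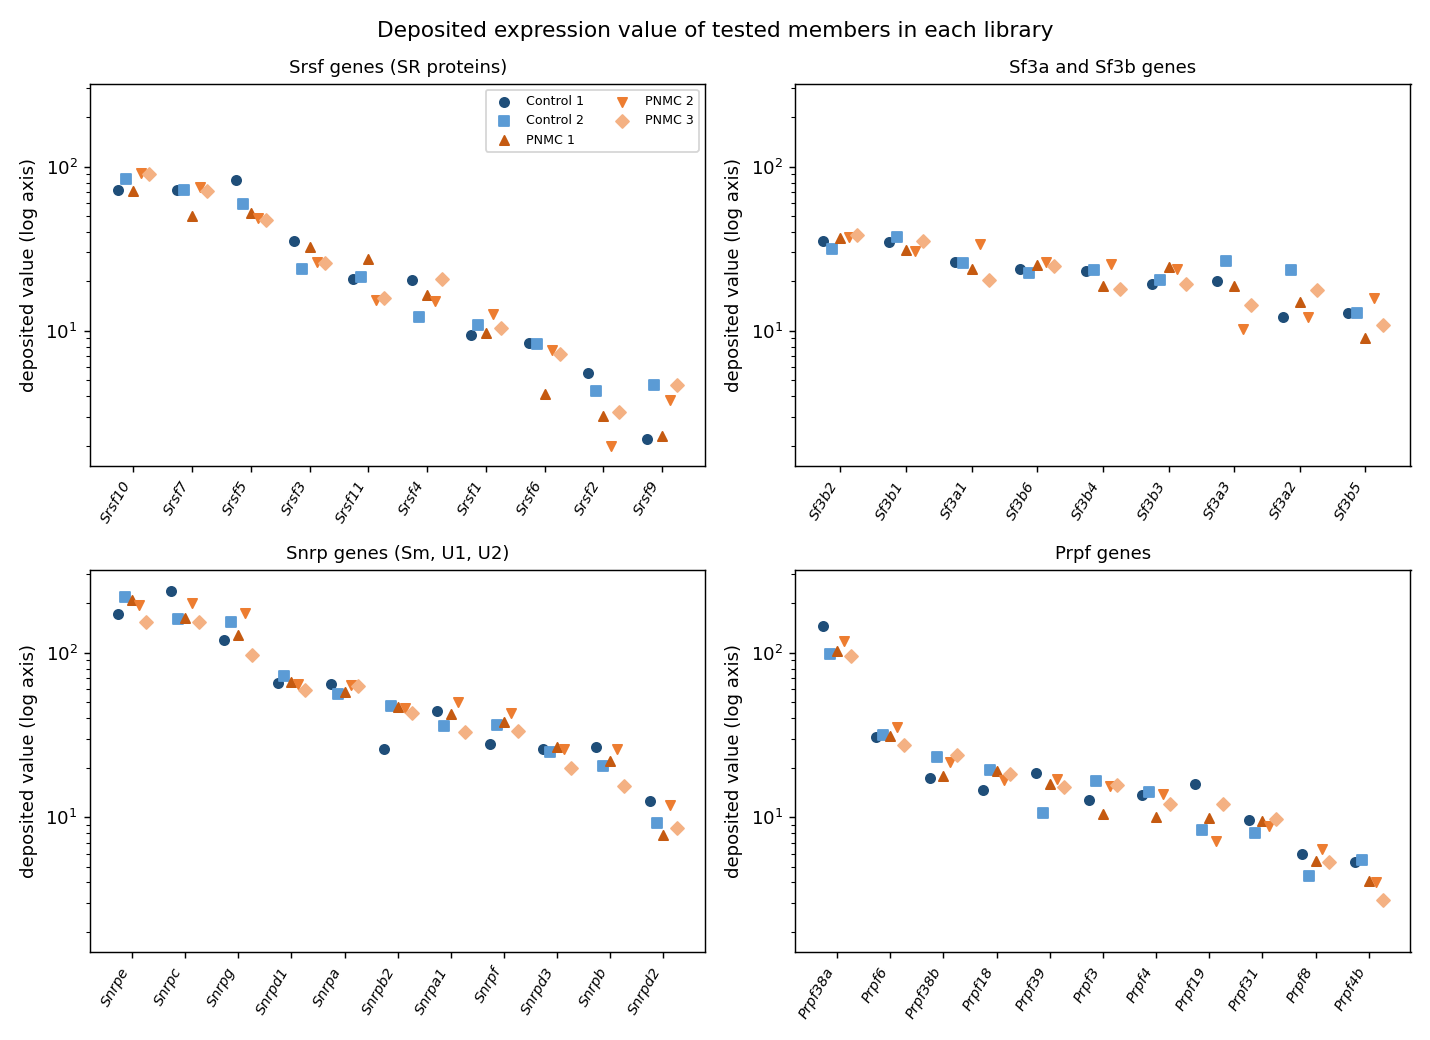
Deposited value (log axis) of the tested genes, except 1 that is not shown, in each of the 5 libraries, by family. Blue symbols are the 2 controls and orange symbols the 3 PNMC libraries. The groups overlap in all genes shown but 7.

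**Figure D2:**
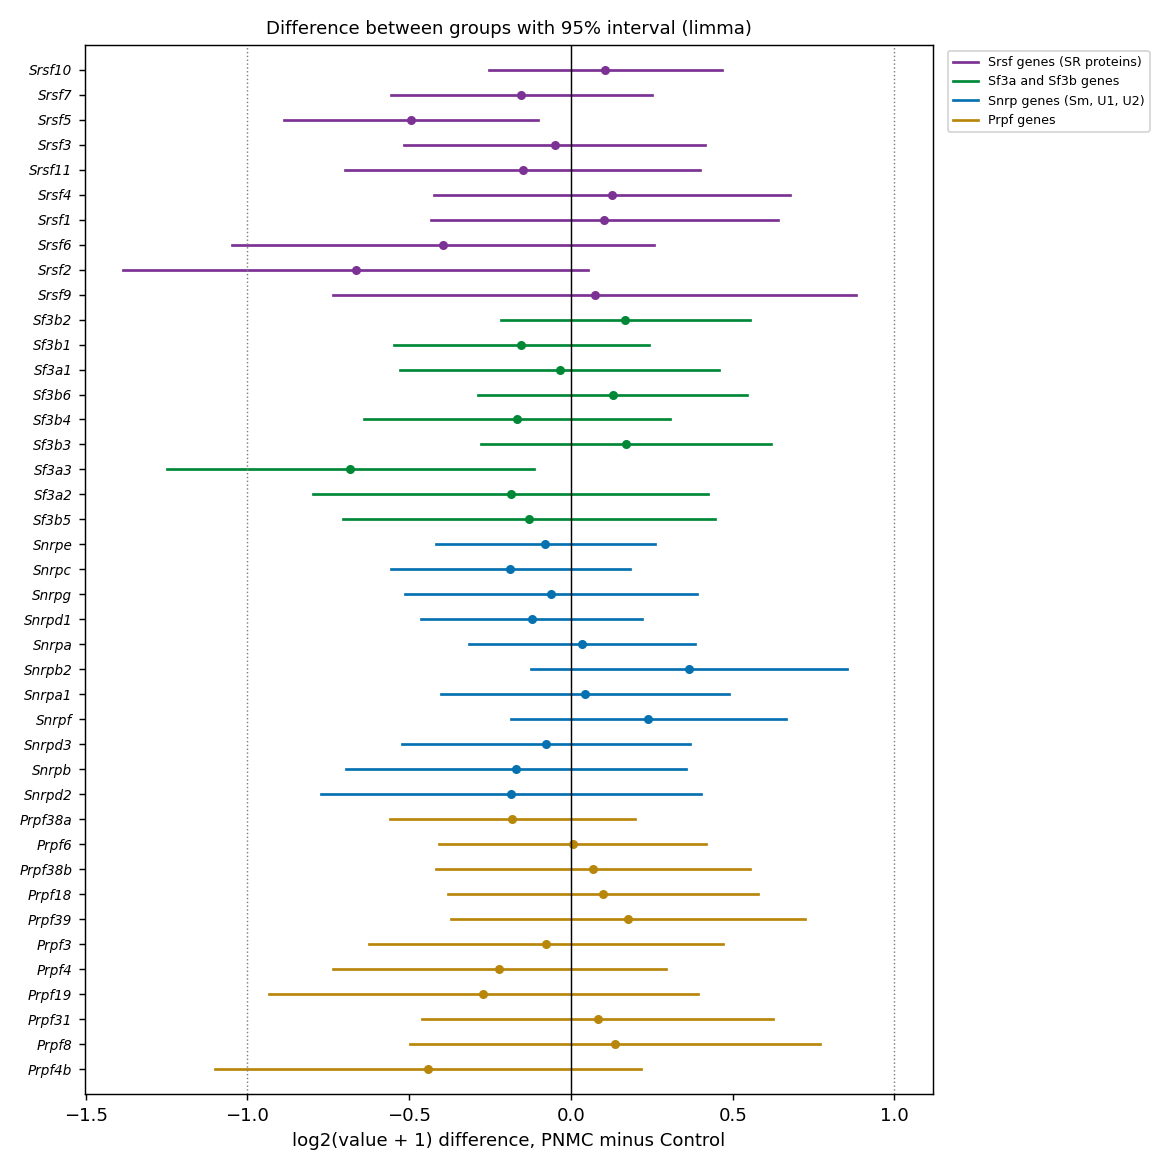
Difference between group means on the log2(value + 1) scale (dot) with limma's 95% interval (line), one gene per row, coloured by family, with 1 tested gene not shown. Dotted lines mark 1 unit either way, and all intervals shown but 4 lie between them.

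None of the 10 tested SR protein genes passed the test. The PNMC values lay entirely below the controls in 3 of them, Srsf5, Srsf2 and Srsf6 (background 11.9%). Srsf5 was at 83.4 and 59.0 in control libraries 1 and 2 and at 52.3, 48.9 and 47.4 in PNMC libraries 1, 2 and 3. The PNMC values are close together and below both controls, but control 1 stood well above control 2. The log2 change was -0.49 (SE 0.182, 95% interval -0.89 to -0.10, limma adjusted p = 0.967), and it was -0.25 without control library 1. Srsf5 is a classical SR protein that promotes exon inclusion. Srsf2, which binds exonic enhancers and stays in the nucleus, was at 5.5001 and 4.31 in the controls and at 3.05, 1.98 and 3.22 after PNMC. These groups did not overlap either, and the log2 change of -0.66 had an interval from -1.38 to 0.05 (SE 0.334, limma adjusted p = 0.986). Srsf6, named after its values were seen, was at 8.46 and 8.36 in the controls and at 4.14, 7.63 and 7.27 after PNMC. Most of its difference came from PNMC library 1: the log2 change was -0.39 over all libraries (limma adjusted p = 0.993) and -0.16 without that library.

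Other Srsf genes showed no such separation. Srsf10, an unusual family member that represses splicing when dephosphorylated, was at 71.5 and 83.7 in the controls and at 70.8, 91.2 and 89.7 after PNMC. Srsf7, which also takes part in mRNA export, was at 71.66 and 71.69 in the controls and at 50.01, 74.7 and 71.3 after PNMC. For Srsf7 the controls were nearly equal and PNMC library 1 alone was low, and without it the log2 change turned from -0.15 to 0.03. The intervals ran from -0.25 to 0.47 for Srsf10 and from -0.56 to 0.25 for Srsf7. The other 5 tested genes, Srsf1, Srsf3, Srsf4, Srsf9 and Srsf11, had log2 changes between -0.15 and 0.13, and their groups overlapped. Control 1 minus control 2 was 0.70 in Srsf4 and -0.82 in Srsf9 on that scale. Srsf12 was listed at 0 in 4 libraries and at 0.0604 in control library 2, and was not tested.

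SF3a and SF3b are the protein complexes that anchor U2 at the branch point, and none of their 9 genes passed the test. The PNMC values lay entirely below the controls in 1 (background 11.9%) and entirely above in 2 (background 7.97%). Together these are 33.3%, against 19.9% of all genes tested. In the SF3a trimer Sf3a3 was at 20.1 and 26.8 in the controls and at 18.7, 10.3 and 14.5 after PNMC. All PNMC values were below the controls, although PNMC 1 and control 1 were close. The log2 change was -0.68 (SE 0.263, 95% interval -1.25 to -0.11, limma adjusted p = 0.967). The partners of Sf3a3 in the trimer did not separate: Sf3a1 was at 26.2 and 26.002 in the controls and at 23.7, 34.0 and 20.4 after PNMC. Its log2 change of -0.03 (95% interval -0.53 to 0.46) turned to 0.04 when library medians were made equal (median scaling). Sf3a2, named after its values were seen, was at 12.1 and 23.6 in the controls and at 14.9, 12.1 and 17.8 after PNMC, so the controls spanned the whole PNMC range. A difference between the 3 subunits was not tested.

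In SF3b, Sf3b1, which clamps the branch helix and is a frequent target of splicing inhibitors, was at 34.7 and 37.0 in the controls and at 30.9, 30.5 and 35.2 after PNMC (log2 change -0.15, 95% interval -0.55 to 0.24). Sf3b2, its neighbour in the complex, was at 35.3 and 31.3 in the controls and at 36.6, 37.3 and 38.5 after PNMC. All PNMC values were above the controls, by a log2 change of 0.17 with an interval from -0.22 to 0.55 (limma adjusted p = 0.993), which was 0.09 without control 2. Sf3b6, which contacts the branch region and was picked once its values were known, was at 23.9 and 22.4 in the controls and at 25.2, 26.1 and 24.9 after PNMC, a log2 change of 0.13 that was 0.09 without control 2. It had the smallest ratio of highest to lowest library, 1.17, apart from Snrpa at 1.15. Sf3b3, Sf3b4 and Sf3b5 had log2 changes between -0.17 and 0.17, and their groups overlapped.

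A sequence feature shared by many of these genes, and not used to choose them, lies in their promoters. RefSeq promoters of 300 bases (250 before the start and 50 after, build GRCm38.p6) were at hand for 38 of the 44 genes as 46 windows. The core letters of sites for ETS transcription factors, CCGGAAG on either strand, occurred in 21 of the 46 windows, or 45.7%. They occurred in 17.0% of the 12176 windows of all tested genes with a match and in 8.86% of all 32851. Among SF3 genes they occurred in 7 of 8 windows, from 6 of 7 genes, against 4 of 11 Srsf, 4 of 9 Snrp and 4 of 11 Prpf genes. The GC box GGGCGG was in 60.9% of the windows against 57.8% of tested genes, and TATAAA in 8.7% against 7.97%, both on either strand and with overlaps between motifs allowed. A match describes letters and is neither a bound site nor a cause. Median CpG content was 24 dinucleotides per window, against 19 for tested genes. Windows with the core are shown for SF3 genes, and for Srsf5 and Snrpc as examples from other families that hold it. Windows without the core are not shown. Up to 30 bases are given on either side of the core, all before the start of the gene. Letters run 5′ to 3′ on the strand of the gene, with the core in capitals.
Sf3a1, chr11:4160317-4160353, plus strand: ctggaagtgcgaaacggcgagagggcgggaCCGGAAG
Sf3a2, chr10:80798629-80798695, plus strand: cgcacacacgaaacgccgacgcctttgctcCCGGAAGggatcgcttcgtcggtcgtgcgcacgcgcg
Sf3a3, chr4:124714741-124714807, plus strand: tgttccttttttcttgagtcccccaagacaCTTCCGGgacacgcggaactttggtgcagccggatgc
Sf3b2, chr19:5295456-5295498, minus strand: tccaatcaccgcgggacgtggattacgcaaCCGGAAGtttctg
Sf3b3, chr8:110846996-110847053, minus strand: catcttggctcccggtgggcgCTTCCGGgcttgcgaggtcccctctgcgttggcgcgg
Sf3b6, chr12:4817508-4817574, plus strand: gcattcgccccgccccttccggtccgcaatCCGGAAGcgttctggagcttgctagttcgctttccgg
Srsf5, chr12:80945446-80945498, plus strand: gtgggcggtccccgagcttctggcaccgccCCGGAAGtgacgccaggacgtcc
Snrpc, chr17:27840018-27840084, plus strand: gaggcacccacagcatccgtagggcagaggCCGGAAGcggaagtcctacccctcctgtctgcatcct

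Counted from the start of the gene, the first base of the capitalised core lay at -7 in Sf3a1, -13 in Sf3b2, -23 in Srsf5, -39 in Snrpc, -70 in Sf3b6, -76 in Sf3a2, -90 in Sf3a3 and -229 in Sf3b3. The starts are those of RefSeq, and no GENCODE transcript held the first bases after the start used for Srsf5 and Sf3b3. Sf3b6 and Srsf5 hold a second core further from the start. Sf3a3 and Sf3b3 carry it in the reverse orientation, read as CTTCCGG. Of all 18 genes that hold the core, the groups overlapped in 13. The PNMC values lay entirely below the controls in 3, Sf3a3, Srsf5 and Prpf4b (background 11.9%). They lay entirely above in 2, Sf3b2 and Sf3b6 (background 7.97%). A link between the core and separation of the groups was not tested.

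The Snrp genes encode the ring of Sm proteins that encircles the RNA of the spliceosomal snRNPs U1, U2, U4 and U5, and proteins that mark U1 and U2. No member of this family separated the groups (0 of 11, background 19.9%), and all 11 intervals lay within 1 unit (background 61.4%). The background genes had lower values, with a median of 7.09 against 41.8 in this family. Snrpe, an Sm ring subunit, was at 174 and 219 in the controls and at 209, 194 and 154 after PNMC. Snrpg, another ring subunit, was at 119 and 155 in the controls and at 129, 176 and 97.3 after PNMC. For Snrpg the PNMC libraries spanned the controls, while for Snrpe control 2 was the highest library and PNMC 3 the lowest. The log2 changes were -0.08 in Snrpe (95% interval -0.42 to 0.26) and -0.06 in Snrpg (-0.51 to 0.39). Snrpf, also of the ring, was at 27.9 and 36.4 in the controls and at 37.9, 42.8 and 33.2 after PNMC, a log2 change of 0.24 with an interval from -0.19 to 0.67. It was 0.05 without control 1, the lowest library, 0.43 without control 2 and 0.15 without PNMC 2. The ring genes Snrpb, Snrpd1, Snrpd2 and Snrpd3 had log2 changes between -0.18 and -0.08.

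Of the U1 proteins, Snrpc, which helps U1 to pair with the start of the intron, was at 236 and 162 in the controls and at 163, 201 and 154 after PNMC. Control 1 was the highest library and control 2 fell among the PNMC values, and the log2 change was -0.19 (95% interval -0.56 to 0.18). Snrpa, which binds a stem-loop of U1 RNA, was between 55.9 and 64.5 in all 5 libraries. Of the U2 proteins, Snrpb2 was at 25.9 and 47.2 in the controls and at 46.9, 46.2 and 43.0 after PNMC. Here control 1 alone was low: the log2 change was 0.36 over all libraries (95% interval -0.12 to 0.85, limma adjusted p = 0.993) and -0.06 without control library 1. Its partner Snrpa1 was at 44.1 and 36.1 in the controls and at 42.5, 50.02 and 32.7 after PNMC.

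PNMC libraries 2 and 3 lay on opposite sides of the controls in the Snrp family. Relative to the mean of each gene, its mean log2 deviation was 0.0017 for control 1, 0.02 for control 2, 0.0084 for PNMC 1, 0.18 for PNMC 2 and -0.21 for PNMC 3. PNMC library 3 was the lowest library in 7 of the 11 Snrp genes, where it was the lowest in 22.5% of all genes tested. In that library the deviation was 0.02 for Srsf, -0.08 for SF3 and 0.0024 for Prpf genes, and a difference between families was not tested. Snrp transcripts are short, with a median of 1161 bases for the longest coding transcript in GENCODE against 2618 for Srsf, 3222 for SF3 and 3522 for Prpf. Over the 736 tested genes with transcripts under 1000 bases the mean deviation was -0.01 for control 1, 0.16 for control 2, -0.06 for PNMC 1, 0.09 for PNMC 2 and -0.17 for PNMC 3. Of the 11 Snrp genes 3 are that short and 6 have at least 1000 and under 2000 bases, a class of 2536 genes with deviations of only 0.0053 in PNMC 2 and -0.06 in PNMC 3. Over the 3489 genes of 4000 bases or more the same libraries stood at 0.01, 0.04, -0.0008, -0.04 and -0.01. In PNMC 2 and 3 transcripts under 1000 bases deviated to the same sides as the Snrp genes, and the next class much less. In control 2 these short transcripts stood at 0.16 against 0.02 for the Snrp genes, and in PNMC 1 at -0.06 against 0.0084. The part of length in the Snrp pattern was not tested.

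**Figure D3:**
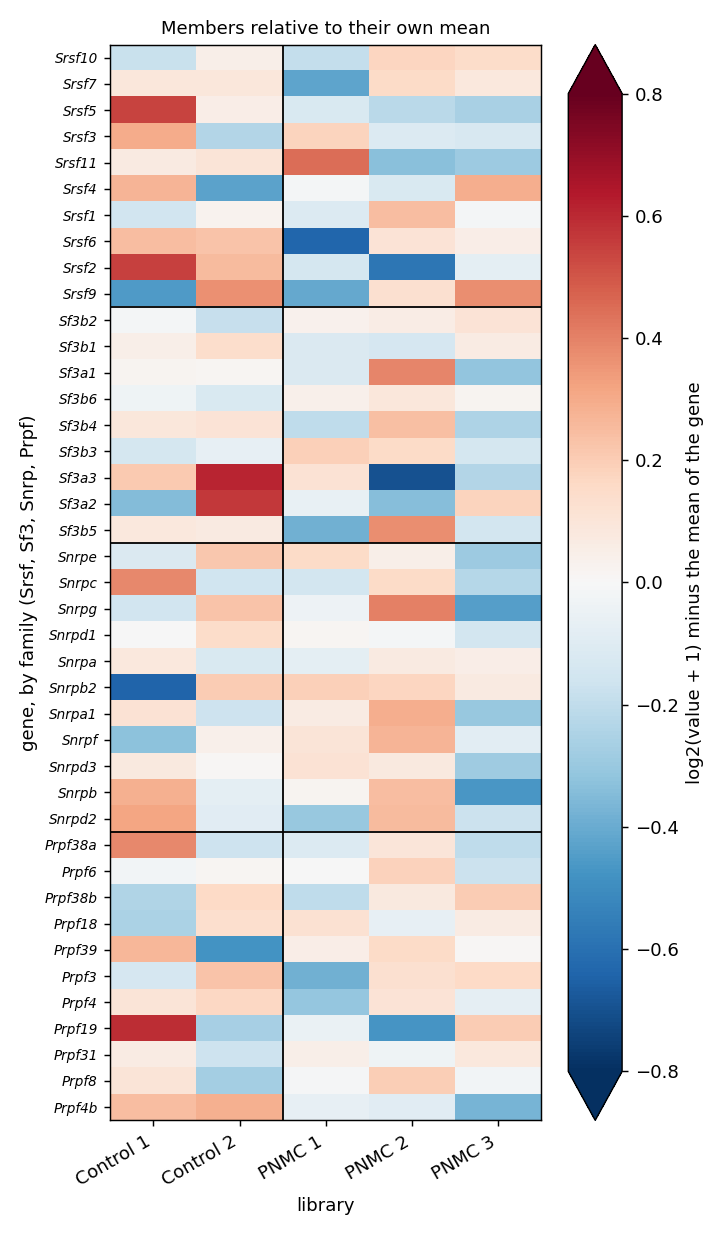
Tested genes (rows, 1 not shown, grouped as Srsf, Sf3, Snrp and Prpf) in each library (columns), as log2(value + 1) minus the mean of the gene over the 5 libraries, red above and blue below. The vertical line parts the controls from PNMC. In the Snrp block the column of PNMC library 3 is mostly blue, the lowest library in 7 of 11 genes.

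**Figure D4:**
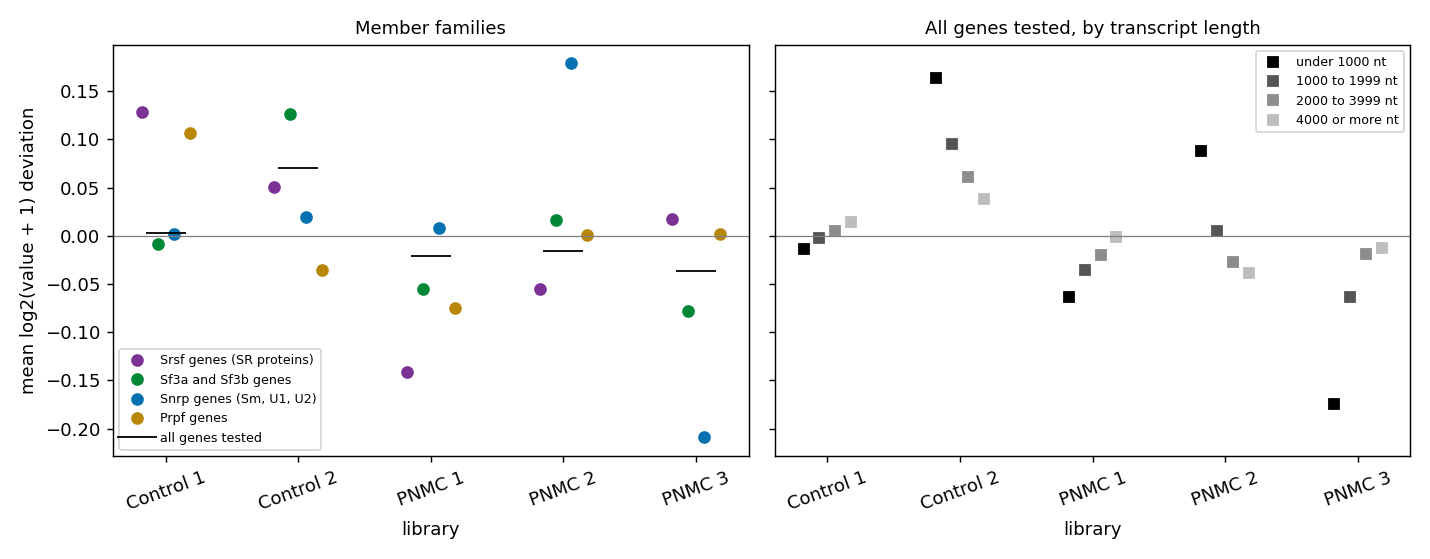
Mean log2 deviation per library of the 4 families (left, with all genes tested as black bars) and of all tested genes by length of their longest coding transcript (right). Snrp genes stand at 0.18 in PNMC library 2 and -0.21 in PNMC library 3, and transcripts under 1000 nt at 0.09 and -0.17. In control library 2 Snrp genes stand at 0.02 and transcripts under 1000 nt at 0.16.

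The Prpf genes, named for yeast mutants in pre-mRNA processing, act from the first contact with the intron to the last catalytic step. Of 12 tested genes, 1 separated the groups (8.33%, background 19.9%). Prpf4b, a kinase that phosphorylates proteins of the tri-snRNP, was at 5.34 and 5.49 in the controls and at 4.10, 4.005 and 3.12 after PNMC. The controls were close and all PNMC values lower, with a log2 change of -0.44 and an interval from -1.10 to 0.22 (SE 0.306, limma adjusted p = 0.993). Prpf38a, needed for activation of the assembled spliceosome, was at 145 and 98.8 in the controls and at 103, 119 and 96.2 after PNMC. Its log2 change of -0.18 (95% interval -0.56 to 0.20) became 0.09 without control library 1, the highest library. Prpf6, which bridges U5 and U4/U6, was at 30.6 and 31.6 in the controls and at 31.1, 35.5 and 27.5 after PNMC, a log2 change of 0.01 with an interval from -0.41 to 0.42.

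The remaining Prpf genes overlapped between groups. Prpf8, the scaffold of the catalytic centre, was at 5.94 and 4.35 in the controls and at 5.41, 6.38 and 5.35 after PNMC. The U4/U6 proteins Prpf3, Prpf4 and Prpf31 had log2 changes of -0.08, -0.22 and 0.08. Prpf19, the ubiquitin ligase of the complex named after it, was at 16.0 and 8.37 in the controls and at 9.85, 7.13 and 12.0 after PNMC. The log2 difference between its controls, 0.86, was the largest in the family. Prpf18, Prpf38b and Prpf39 had log2 changes between 0.07 and 0.18. Prpf40b was listed at 0 in control 1 and PNMC 2 and at most at 1.03, and was not tested.

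Summed over all 44 genes, the deposited values were 1687 and 1636 in the controls and 1551, 1710 and 1455 after PNMC. These sums are 0.378% and 0.366% of the library totals in the controls and 0.348%, 0.378% and 0.320% after PNMC. By either measure PNMC libraries 1 and 3 lay below both controls. PNMC 2 had the highest sum, but as a share it did not exceed control 1. By family, the Srsf sum was 329 and 299.96 in the controls and 268, 298 and 297 after PNMC, so all 3 PNMC sums were lower, PNMC 2 and 3 only slightly below control 2. The SF3 sum was 207 and 224 in the controls and 202, 216 and 199.6 after PNMC. The Prpf sum was 329 and 274 against 272, 294 and 279, a log2 ratio of group means of -0.10 that became 0.04 without control 1. The largest value in this sum, Prpf38a, was at 145 and 98.8 in the controls and at 103, 119 and 96.2 after PNMC. Genes with high deposited values weigh most in all these sums. The Snrp sum was 822 and 838 against 809, 903 and 680.4.

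Other genes of the splicing pathway gave the same count. In 11 further lists, 131 of 132 names were in the table and 129 were tested, and 0 passed the adjusted threshold in either direction (percent called 0). Before adjustment, limma gave a p under 0.05 to 1 higher and 7 lower genes, against backgrounds of 1.73% and 3.27%, and 27 of the 129 had no overlap between groups (11 higher, 16 lower), or 20.9% against 19.9%. Their median log2 change was -0.04. List medians ran from -0.18 in the snRNP assembly factors and -0.17 in the minor spliceosome to 0.08 in U2-associated factors and 0.09 in U1 and splice-site factors. All lists but U2-associated, U1, and exon junction genes had medians below 0, and after median scaling 6 of these 8 turned above 0, as did the median of the Prpf family (0.04). The minor spliceosome median was then -0.09, and it was -0.02 without PNMC 3, -0.07 without control 1 and -0.25 without PNMC 1. The snRNP assembly median was -0.10 after median scaling, -0.07 without PNMC 3 and -0.36 without control 2.

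Several partners of the genes above can be given by value. Phf5a, a subunit of SF3b outside the symbol rule, was at 113 and 115 in the controls and at 122, 136 and 126 after PNMC, all PNMC values above the controls (log2 change 0.17, 95% interval -0.13 to 0.46). Rbm17, a U2-associated factor, was at 114 and 115 in the controls and at 94.0, 91.6 and 86.6 after PNMC. The groups were well apart and the spread small, with a log2 change of -0.34 (SE 0.142, 95% interval -0.64 to -0.03, limma adjusted p = 0.967). Gemin5, which recognises snRNA for the SMN complex that loads the Sm ring, was at 5.49 and 4.74 in the controls and at 3.38, 2.56 and 1.98 after PNMC (log2 change -0.76, limma adjusted p = 0.973). Gemin7 of the same complex was at 133 and 138 in the controls and at 132.6, 126 and 129 after PNMC, lower in all 3 but with a log2 change of -0.07 that turned to 0.0060 after median scaling. Ppil1, an isomerase of the catalytic core, was at 20.1 and 14.0 in the controls and at 4.94, 8.49 and 14.6 after PNMC, where PNMC 3 overlapped the controls. Its log2 change was -0.89, and -0.55 without PNMC 1. Syf2, a partner in that core, was at 418 and 438 in the controls and at 458, 461 and 468 after PNMC, a log2 change of 0.11 (95% interval -0.11 to 0.34).

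Enzymes and regulators around the SR proteins were also measured. Srpk1, a kinase of SR proteins, was at 199 and 208 in the controls and at 187, 164 and 199.7 after PNMC, and Clk4, a nuclear SR kinase, was at 16.1 and 15.7 in the controls and at 18.8, 22.6 and 18.8 after PNMC (log2 change 0.31, 95% interval -0.15 to 0.77). Tra2b, an SR-like splicing activator, was at 99.5 and 81.9 in the controls and at 72.2, 75.1 and 82.2 after PNMC, and Rnps1 was between 76.0 and 90.3. Among hnRNP proteins, which often oppose SR proteins, Hnrnpa1 was at 602 and 396 in the controls and at 460, 478 and 513 after PNMC, so the controls spanned every PNMC value. Hnrnpul2 was at 8.85 and 8.39 in the controls and at 6.90, 3.94 and 4.87 after PNMC (log2 change -0.65, limma adjusted p = 0.986). The exon junction subunit Magoh was at 179 and 197 in the controls and at 183.2, 224 and 206 after PNMC, and its paralog Magohb at 2.33 and 7.56 and then at 6.61, 4.60 and 6.84. U2af1l4, a relative of the U2 auxiliary factor, was at 133 and 172 in the controls and between 153 and 160.3 after PNMC, and Luc7l3, linked to U1, at 9.61 and 10.9 and then at 12.0, 16.1 and 11.5. Snrnp27 of the tri-snRNP was at 149 and 179 in the controls and at 169, 131 and 149 after PNMC, and Lsm8, of the ring on U6 RNA, at 7.71 and 7.36 and then at 2.89, 7.03 and 3.13. Slu7 and Tfip11 act at the second step and in disassembly. Slu7 was at 42.7 and 64.7 in the controls and at 65.7, 49.1 and 69.0 after PNMC, and Tfip11 at 14.4 and 11.3 and then at 7.16, 7.31 and 8.81. Of the minor spliceosome, Zcrb1 was at 32.2 and 34.8 in the controls and at 23.8, 28.4 and 18.7 after PNMC, and Zmat5 at 42.2 and 23.8 and then at 39.4, 37.1 and 13.1.

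**Figure D5:**
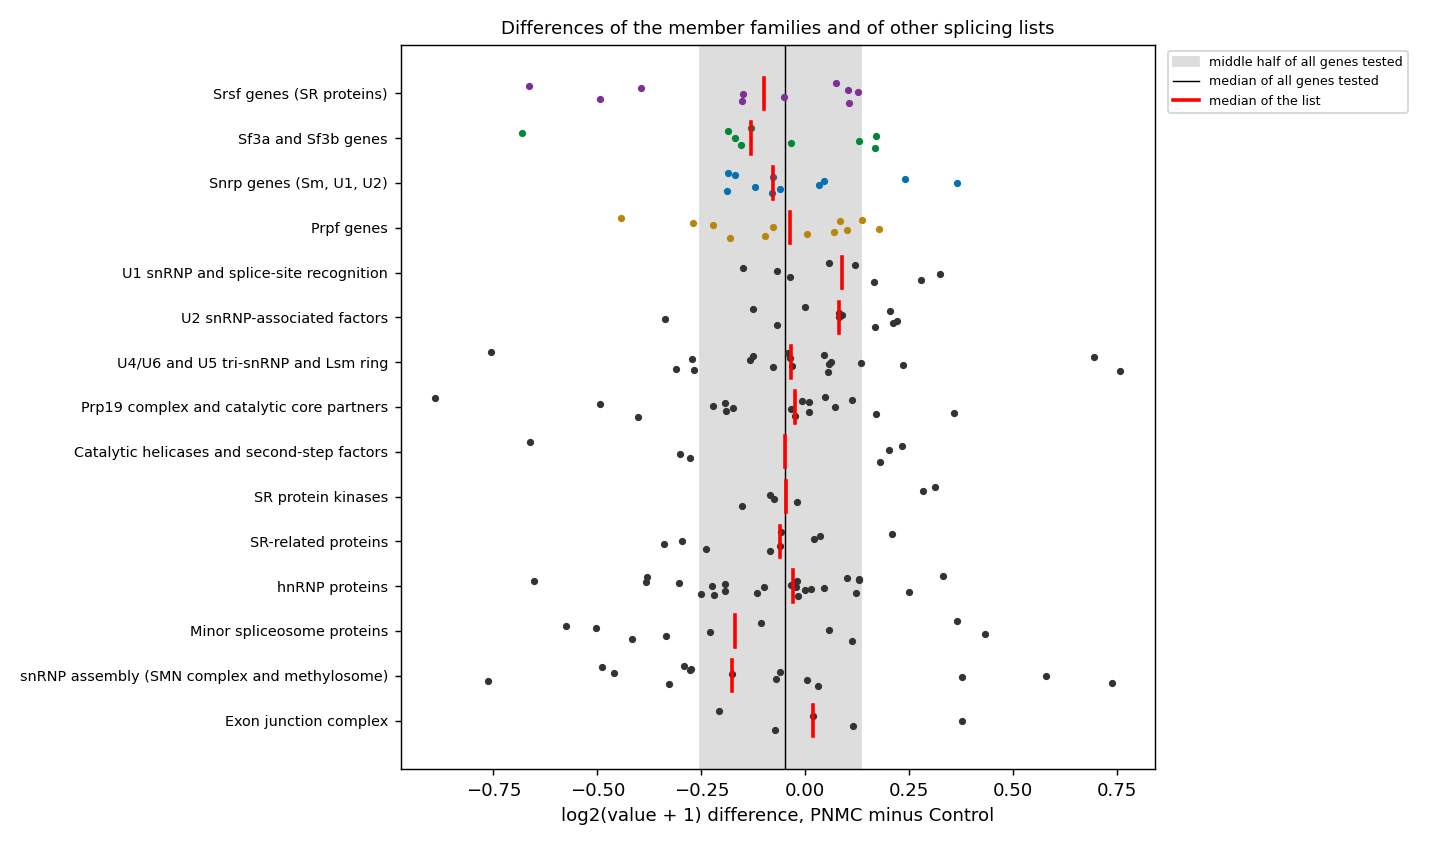
Difference between groups on the log2(value + 1) scale for each tested gene of the 4 families and of 11 further splicing lists (dots), with list medians in red. The grey band spans the quartiles of all genes tested and the black line their median of -0.05. List medians lie between -0.18 and 0.09.

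Shared sequence limits some of these values. Of the 44 genes, 6 had at least 20% of the 50-base words of their longest coding transcript in another annotated gene on the same strand. These were Sf3b4 (49.3%), Srsf3 (31.5%), Srsf5 (27.8%), Snrpa (22.5%), Snrpf (21.3%) and Snrpe (20.8%), and how reads of such copies were assigned is not known. In 10 of the 11 Snrp genes at least 1 word was shared. Smart-seq2 keeps no strand information, and 13 of the genes overlap exons of a gene on the other strand. Words found in any other gene read in the opposite sense made up 73.2% of Snrpf, with Ccdc38 listed between 14.3 and 18.5 and 4933408J17Rik at 0. It was 65.4% in Srsf4, with Gm12992 between 4.96 and 9.53, and 35.2% in Srsf2, with Mettl23 between 3.34 and 7.41 and Mfsd11 between 3.44 and 5.29. Reads from the overlapping stretches cannot be told apart.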

How the data were processed

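Smart-seq2 libraries were made from 2-cell embryos, per the labels' protocols. The submitters' processing notes list Trimmomatic, HISAT2 2.0.5, HTSeq, DESeq2 1.16.1 and build GRCm39. Neither the annotation nor the tool behind the table is given in the sources at hand. The authors deposited a single table of normalised signal per gene symbol, with 1 column per library that matches a sample title. Its values are fractional and low values shared no common step, so the depth behind them is unknown and count models and counting intervals were not used.

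A gene was kept if it reached 1 in 2 or more of the 5 libraries (12734 kept, 19551 removed). PNMC was compared with Control on log2(value + 1) by limma 3.58.1 in R 4.3.3, with a mean-variance trend, robust variances, no covariate and Benjamini-Hochberg adjustment over all genes tested, at 0.05. The fit was tested on simulated data. Transcript lengths and shared words came from GENCODE M21 and promoters from RefSeq, both on GRCm38, and were joined to the table by symbol only. Lengths matched 88.7% of tested genes.

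The members, gene lists and markers were chosen with earlier results of these data known. Named genes were, in each of the 4 families, the 3 with the highest mean value and the 2 with the smallest p, and in each further list the highest and the one with the smallest p. The values of 1 gene that this rule names are not reported here, though it stays in the counts. Any other gene given with its values was picked after they were seen. Alternatives were another pseudocount (0.1), testing every gene above 0, a stricter minimum (10), quantile normalisation, median scaling, a replicate block, limma without trend and robust variances, leaving out each library and, for family sums, shares of the library total.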

Additional observations from a re-analysis of the deposited data

How the results depend on the processing

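With 1 library left out, 0 to 1 genes of the whole table passed the adjusted limma threshold; the 1 appeared without PNMC library 1 (adjusted p = 0.011). The 7 other alternatives gave 0, with 210 to 926 genes at an unadjusted p under 0.05. Of the splicing genes 0 passed in all 12, and 1 to 4 had an unadjusted p under 0.05. Their count without overlap was 4 of 36 at a minimum of 10, or 11.1% against 17.6% of all genes tested. It was 8 after quantile normalisation and after median scaling, or 19% against 19.6% and 20.6% of all genes tested. With 1 library left out it was 10 to 24, or 23.8% to 57.1% against 31.7% to 52.3% of all genes tested, since fewer values have to separate. Their median log2 change was -0.0012 after median scaling, -0.0078 under the replicate block, and -0.10 to -0.0078 with 1 library left out. Median scaling moved the median of all genes to 0.03 and turned the sign in Gemin7 (0.0060), Hnrnpa1 (0.060), Sf3a1 (0.042) and Snrpg (0.015). The replicate block turned it in Rnps1 (-0.0086), Sf3a1 (0.12), Snrpe (0.050), Snrpg (0.15) and Zmat5 (0.26). Each of these blocked values was the same as the value without PNMC 3. The labels do not say that a number marks shared embryos: deviations of same-numbered libraries correlated at -0.058 and -0.043, PNMC 3 has no partner and so adds nothing to the blocked difference, and the block left 544 genes at an unadjusted p under 0.05 against 636. The log2 ratio of summed Prpf values ran from -0.22 to 0.036 with 1 library left out. Log2 changes that turned sign with 1 library left out ran from -0.32 to 0.28 in Hnrnpa1, -0.30 to 1.06 in Magohb, -0.46 to 0.094 in Prpf38a, -0.084 to 0.093 in Prpf6, -0.083 to 0.16 in Rnps1, -0.24 to 0.12 in Sf3a1, -0.092 to 0.50 in Slu7, -0.058 to 0.79 in Snrpb2, -0.46 to 0.086 in Snrpc, -0.25 to 0.087 in Snrpe, -0.28 to 0.15 in Snrpg, -0.0056 to 0.22 in Srsf10, -0.26 to 0.026 in Srsf7, -0.13 to 0.24 in U2af1l4 and -0.63 to 0.26 in Zmat5. In the single-gene comparisons with 1 library left out, 22 values turned sign and 178 did not. The cause of these moves was not tested. Without a control library, the lone control is assumed to vary like the PNMC libraries. The unknown depth leaves the counting error of low genes such as Srsf2 and Prpf4b unmeasured.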
